A study of Mus musculus with 2 samples.

Results

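The ABCA and ABCG sterol transporters were examined in a mouse macrophage line with introduced liver X receptor LXRα, treated with LXR and RXR ligands. The family was taken as 10 genes, Abca1, Abca2, Abca3, Abca5, Abca7, Abcg1, Abcg2, Abcg3, Abcg5 and Abcg8, and every probe set annotated with 1 of these symbols was used. All 10 genes were on the array, with 17 probe sets in all, among 18193 genes and 34945 gene probe sets. The cells were RAW264.7, a macrophage-like line, and both groups stably expressed introduced murine LXRα after chemical transfection. The ligand group received the LXR agonist GW3965 at 1 µM together with the RXR agonist LG268 at 100 nM, and the DMSO group received the solvent, each for 24 h. Each group had 1 Affymetrix mouse array and there were no replicates, so no test was possible and every fold compares these 2 arrays. Neither ligand alone, nor cells without introduced LXRα, was analysed here. The labels do not say whether the stable cells were 1 clone or a pool.

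ABC transporters use ATP to move lipids and other molecules across or within membranes. ABCA proteins are full transporters, whereas ABCG proteins carry a single set of domains and work as pairs. In macrophages, ABCA1 loads cholesterol and phospholipid onto lipid-poor apolipoprotein A-I and ABCG1 promotes efflux to mature HDL particles, and both genes are textbook targets of LXR. LXR binds DNA as a heterodimer with RXR, typically at direct repeats of AGGTCA spaced by 4 letters, known as DR4 elements.

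Abca1 and Abcg1 had much higher signals with the ligands, and the other measured members of the family did not. Abca1 was 27.2-fold higher by its brightest probe set and Abcg1 3.75-fold higher. By the same measure Abca2 and Abca3 were higher by less than 1.5-fold and Abca7 was 1.11-fold lower. In such bulk RNA, a difference in the share of cells that express a gene and one in RNA per cell cannot be told apart. The other 5 genes, Abca5, Abcg2, Abcg3, Abcg5 and Abcg8, gave signals near background on both arrays. Near background means at or below a floor of 406, the median MAS5 signal of the gene probe sets of both arrays. A gene or probe set above that floor on at least 1 array is called measured here.

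By this criterion 9 of the 17 probe sets and 5 of the 10 genes were measured. Each gene was represented by its brightest probe set, and 2 of the 5 measured genes reached 2-fold in the higher direction with the ligands, while none did so in the lower direction. Over all 9857 measured genes, 1.59% reached 2-fold in the higher and 0.517% in the lower direction. For the 5 genes the median log2 ratio, ligands over DMSO, was 0.56, against -0.03 over all measured genes. Of the 9 measured probe sets, 5 reached 2-fold in the higher direction, where the share over all measured probe sets was 1.58%. None of the 9 reached it in the lower direction, against 0.718% of all measured probe sets. All 5 of those higher probe sets belonged to Abca1 and Abcg1.

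**Figure D1:**
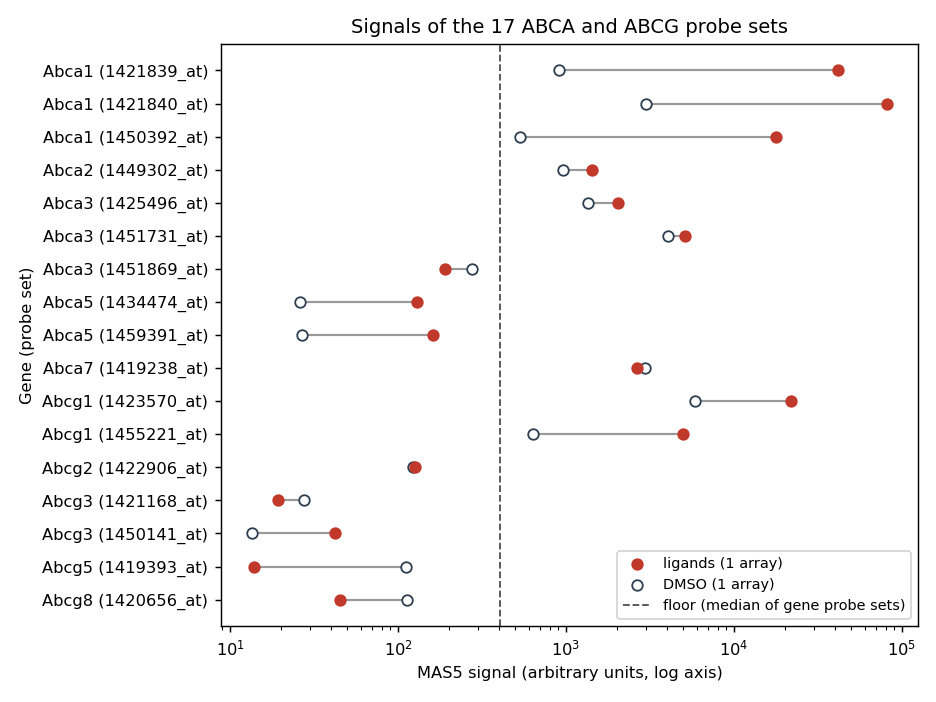
MAS5 signal (log axis) of each of the 17 probe sets, with a filled point for the ligand array, an open point for the DMSO array and a dashed line at the floor of 406. For the 3 probe sets of Abca1 and the 2 of Abcg1 the ligand point lies at least 2-fold to the right of the DMSO point, and 8 probe sets lie below the floor on both arrays.

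Without replicates, error was gauged from how far probe sets of 1 gene disagreed. In 4480 genes, at least 2 probe sets exceeded the floor in both groups, and their disagreement corresponded to an SD of 0.26 per probe set on the log2 scale. These genes were split by mean log2 signal of both arrays into 4 signal bins of 1120 genes. The SD was 0.35 in the weakest bin, 0.27 and 0.22 in the next and 0.16 in the brightest. Each probe set of the family was placed in a bin by its own mean log2 signal of both arrays. These SDs cover measurement within the 2 arrays and not variation between cultures. The trimmed mean signal was 2500.02 on each array. The cells carried macrophage transcripts, with 11 of 11 macrophage markers measured and a median log2 ratio of 0.06 over them. Mpeg1 was 2.03-fold higher with the ligands, and the Fc receptor genes Fcgr3 and Fcgr1 were 1.82-fold and 1.53-fold higher. The other probe set of Fcgr1 had a log2 ratio of only 0.20. None of 5 lymphoid and 7 fibroblast markers on the array was measured. Of 9 hepatocyte and enterocyte markers only Lgals4 was measured, just above the floor with the ligands at 412 and below it with DMSO at 202.

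Abca1 is the cholesterol and phospholipid exporter whose product starts HDL formation. Its brightest probe set, 1421840_at, had a signal of 81159 on the ligand array and 2989 on the DMSO array. The second, 1421839_at, had 41824 with the ligands and 909 with DMSO, a 46.0-fold higher value. The third, 1450392_at, had 17825 with the ligands and 531 with DMSO, a 33.6-fold higher value. Each probe set was thus above the floor in both groups, so that at this floor all 3 ratios were measured and none was a bound. Their log2 ratios were 4.76, 5.52 and 5.07 in that order. The smallest of them was 28.9 times the SD for its signal bin, and the other ratios were 24.6 and 18.7 times theirs. By DMSO signal alone each probe set would fall in a weaker bin with a larger SD, so these multiples would be smaller. The probe sets of Abca1 held ranks 1, 2 and 3 by log2 ratio among the 16700 gene probe sets that exceeded this floor in both groups. The 2 brightest of them differed from each other by 0.76 on the log2 scale. Over the 4480 genes of all signal bins, 5.02% had a pair that differed by at least as much, and brighter pairs disagreed less. The direction and the order of magnitude were therefore shared by all 3, and the exact fold was not.

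At the gene level Abca1 had the highest log2 ratio of the 9232 genes above the floor on both arrays. The next were Apoc2, an apolipoprotein that activates lipoprotein lipase, at 25.1-fold (11575 with the ligands and 462 with DMSO), and Igf1, the growth factor, at 9.80-fold (10020.2 and 1022.7). Cd5l, a secreted scavenger receptor family protein named here after its value was seen, and the apolipoprotein Apoc1 lay below the floor with DMSO, and their bounds were higher, with Cd5l at least 89.2-fold higher and Apoc1 no less than 33.4-fold higher. The first place of Abca1 depended on the floor. With a floor at the median of all probe sets, annotated or not, which was 276, it was at place 3 of 9769 genes. Cd5l and the apolipoprotein Apoe stood above it there. Apoe had 8672 with the ligands and 299 with DMSO, a log2 ratio of 4.86. Apoc1, at 207 with DMSO, was below that floor too and was not ranked.

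**Figure D2:**
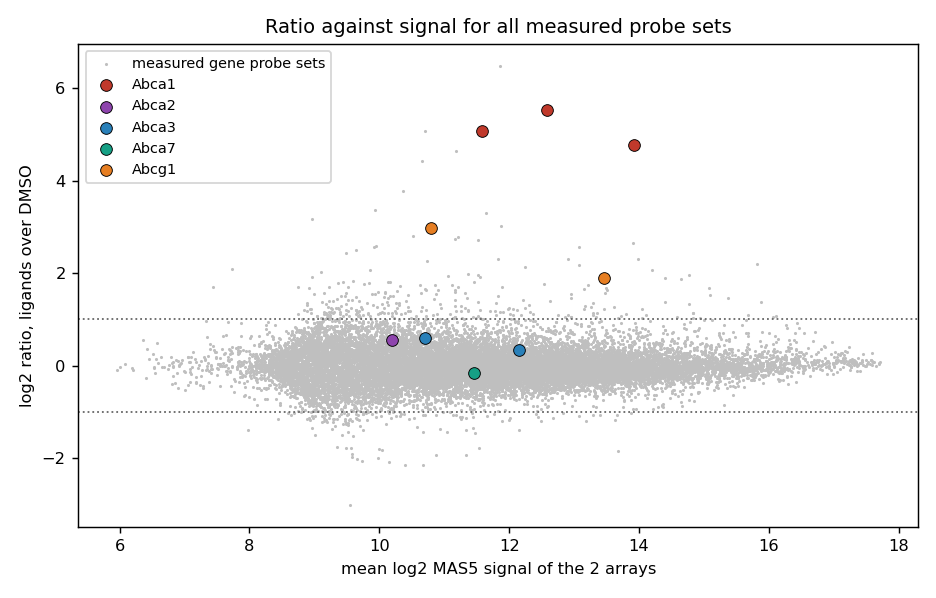
Log2 ratio of ligands over DMSO against the mean log2 MAS5 signal of both arrays for the 18245 measured gene probe sets (grey), with the 9 measured probe sets of the family coloured by gene and dotted lines at 2-fold. Abca1 and Abcg1 stand above the cloud at weak and at strong signals, while Abca2, Abca3 and Abca7 lie within it.

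The upstream sequence of Abca1 is shown because Abca1 had the largest ratio of the family and its proximal promoter is known to hold a DR4 element and an E-box. RefSeq promoters were given for 9 of the 10 genes, and for Abcg1 no promoter is shown. The 250 bases before the annotated start of Abca1 on GRCm38.p6, minus strand, chr4:53159896-53160145, read 5′ to 3′ as follows. Capitals mark the E-box CACGTG and the best match to the motif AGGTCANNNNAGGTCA, which runs on the strand opposite to the gene from 67 to 52 bases before the start.
Abca1: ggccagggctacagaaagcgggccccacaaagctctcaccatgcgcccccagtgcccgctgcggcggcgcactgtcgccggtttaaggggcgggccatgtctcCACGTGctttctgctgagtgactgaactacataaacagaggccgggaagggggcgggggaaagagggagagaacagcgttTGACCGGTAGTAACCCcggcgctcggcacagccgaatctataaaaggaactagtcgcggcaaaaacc

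To set Abca1 beside the measured ABCA genes that differed little, the best match to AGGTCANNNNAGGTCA on either strand was found in the same 250-base window of each. The matches are written in the direction of the motif, and capitals mark the letters equal to 1 of its 12 fixed letters.
Abca1: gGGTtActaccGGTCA
Abca2: AGGTCtagggAGaaCg
Abca3: tGccCActggAGGTgA
Abca7: AGGTgAcccgttGTCc
The Abca1 window matched 9 of the 12 letters, and 18.5% of 32851 promoters of the same length matched at least 9. The windows of Abca2, Abca3 and Abca7 matched 8 letters, which 70.6% of promoters did at least. The remaining members with a promoter, Abca5, Abcg2, Abcg3, Abcg5 and Abcg8, matched 7 or 8 letters in each of their windows. The E-box occurred in the window of Abca1 and in no other window of the family, and in 6.02% of all promoters. These matches describe letters only and were not tested for binding or for a link to the ratios. Abca1 was the only measured member at least 2-fold higher that had a window, since none was given for Abcg1.

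Abcg1 encodes the transporter that passes cholesterol to HDL. Its brightest probe set, 1423570_at, had 21913 on the ligand array and 5844 on the DMSO array, a 3.75-fold higher value and a log2 ratio of 1.91. The other, 1455221_at, had 4950 with the ligands and 633 with DMSO, a 7.82-fold higher value and a log2 ratio of 2.97. Both were above the floor in both groups and both were higher with the ligands. The ratios were 11.6 and 8.38 times the SD of probe sets in their signal bins. By DMSO signal alone the brighter probe set would fall in a weaker bin with a larger SD. Between the probe sets the ratios differed by 1.06 on the log2 scale, a gap that 1.45% of the 4480 genes of all signal bins reached or passed. The size of the Abcg1 difference was therefore less settled than its direction. Even the larger of the Abcg1 ratios was below the smallest ratio of Abca1. By its brightest probe set Abcg1 stood at place 22 of the 9232 genes above the floor on both arrays. Its neighbours in that order, by likeness of log2 ratio between these 2 arrays only, were the exchanger Slc8b1 and the itaconate-producing enzyme Acod1 above, at 1.94 and 1.91. The phospholipid-remodelling enzyme Lpcat3 and the cytochrome P450 Cyp2s1 stood below, at 1.87 and 1.82. None of these 4 lay further from Abcg1 than the SD of 1 probe set. They were chosen as nearest in rank, so this closeness says nothing about shared behaviour.

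**Figure D3:**
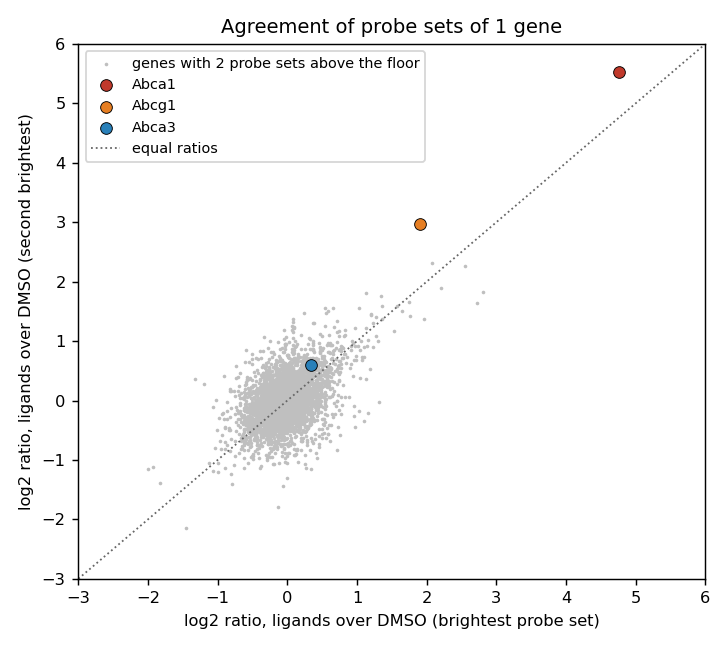
Log2 ratio of ligands over DMSO of the second brightest probe set against that of the brightest, for the 4480 genes with at least 2 probe sets over the floor in both groups, with the dotted line at equal ratios. Abca1 (4.76 and 5.52) and Abcg1 (1.91 and 2.97) lie at the upper right above the line, and Abca3 (0.34 and 0.60) lies inside the cloud.

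Abca7, a close relative of ABCA1 and a lipid transporter linked to phagocytosis, did not show a ratio of that kind. Its single probe set had a signal of 2661 on the ligand array and 2954 on the DMSO array, a log2 ratio of -0.15. That is smaller than the SD of 0.27 in its signal bin, so the arrays could not be told apart for Abca7. Of all measured genes 31.6% had a lower ratio.

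Abca2, a transporter of late endosomes and lysosomes known from neural cells, had a signal of 1426 with the ligands and 964 with DMSO. Its log2 ratio from 1 probe set was 0.56, a 1.48-fold higher value and 1.60 times the SD of 0.35 at such signals. Ratios at least as high were found for 5.92% of measured genes.

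Abca3, the phospholipid transporter of surfactant-containing lamellar bodies in alveolar type II cells, had 3 probe sets. The brightest, 1451731_at, had 5107 with the ligands and 4022 with DMSO, a 1.27-fold higher value. The next, 1425496_at, had 2045 with the ligands and 1348 with DMSO, a 1.52-fold higher value. These ratios were 1.54 and 1.70 times the SD of their signal bins, and 13.3% of measured genes had a ratio at least as high as the brightest probe set. The third, 1451869_at, gave 191 with the ligands and 276 with DMSO, below the floor on both arrays, and was given no fold. Signals of alveolar type II markers were mostly low, with 2 of 5 on the array measured. These were Sftpb (413 with the ligands and 477 with DMSO) and the protease Napsa (9071 and 7151), while Sftpc and Sftpa1 lay below the floor.

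Of the ABCG members besides Abcg1, none was above the floor. Abcg2, a multidrug and urate exporter, had a signal of 127 with the ligands and 124 with DMSO. Abcg5 and Abcg8 form the heterodimer that secretes plant sterols and cholesterol from hepatocytes and enterocytes, and are LXR targets there. Abcg5 had 13.9 with the ligands and 112 with DMSO, and Abcg8 had 45.0 with the ligands and 113 with DMSO. Both genes neighbour each other on the genome, on opposite strands, and 1 of the 2 RefSeq promoter windows of Abcg8 overlaps that of Abcg5. Neither was above the floor in either group, and no fold is given for either. Abcg3, a rodent gene related to Abcg2, had 42.2 with the ligands and 13.6 with DMSO in one probe set and 19.3 and 27.7 in the other, so the 2 probe sets pointed in opposite directions.

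Abca5, a lysosomal transporter, also lay below the floor. Its probe set 1459391_at had 161 with the ligands and 26.6 with DMSO, and 1434474_at had 130.3 and 26.3. Both thus pointed the same way, with unfloored log2 ratios of 2.59 and 2.31. How often both probe sets of a gene below the floor reach such ratios was not tested. Of 16700 gene probe sets below the floor on both arrays, 9.63% had an unfloored log2 ratio at least as high as the smaller of them, and 5.95% had one as low as the -3.01 of Abcg5. Of the same probe sets 51.2% were at least 2-fold apart in either direction. Over the 8 unmeasured probe sets of the family, signals ranged from 13.9 to 191 with the ligands and from 13.6 to 276 with DMSO, and 4 were higher and 4 lower with the ligands. The nearest to the floor was the third probe set of Abca3 with DMSO, and the nearest above it was the third of Abca1 with DMSO, at 531.

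The remaining genes of subfamilies A and G gave little signal. Of 10 such genes on the array, only Abcg4, a sterol transporter of neural cells and close relative of Abcg1, was measured. Its brightest probe set had 447 with the ligands and 558 with DMSO, a log2 ratio of -0.32, and its other probe set lay below the floor. Abca5, Abca6, Abca9, Abca8a and Abca8b lie next to each other on the genome, and none of these 5 was above the floor. Across subfamilies B to F, 16 of 25 genes were measured and 2 reached 2-fold in the higher direction, Abcc3, an organic anion exporter, and Abcc5, a cyclic nucleotide exporter. None reached it in the lower direction, and the median was 0.04 on the log2 scale. For Abcc3 the signal was 6194 with the ligands and 901 with DMSO. For Abcc5 it was 6806 and 2947, and its 8 measured probe sets spanned 0.32 to 1.63 on the log2 scale. Abcb6, a porphyrin transporter, was 1.51-fold higher.

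Genes whose products receive or carry the exported lipid had high ratios in part. Of 11 acceptor and lipoprotein genes on the array 7 were measured, 4 reached 2-fold in the higher direction and none in the lower, with a median log2 ratio of 2.07. The 4 were Apoc1, Apoc2, Apoe and Pltp. Apoc1, a small lipoprotein component, had 13584 with the ligands and 207 with DMSO. Apoe, the macrophage apolipoprotein that also accepts cholesterol, had 8672 with the ligands and lay below the floor with DMSO at 299, which makes it at least 21.3-fold higher. Pltp, the phospholipid transfer protein that remodels HDL, had 38781 with the ligands and 9213 with DMSO, a 4.21-fold higher value. Lpl, the lipoprotein lipase, had log2 ratios of 0.31 and 1.06 in its 2 probe sets. Apoa1, which encodes the main acceptor for ABCA1, was below the floor in both groups, at 380 with the ligands and 25.9 with DMSO.

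Genes of intracellular sterol supply, transport and metabolism differed less. Of 17 on the array 14 were measured, 1 was at least 2-fold higher and none lower, and the median log2 ratio was 0.26. The exception was Gramd1b, which moves accessible cholesterol from the plasma membrane to the endoplasmic reticulum, with 6140 on the ligand array and 2809 on the DMSO array, 2.19-fold higher. Its second probe set was at 1.81 on the log2 scale. Osbpl1a, an oxysterol-binding protein relative, was 1.53-fold lower (1231 with the ligands and 1880 with DMSO), but its second probe set had a log2 ratio of 0.65. Npc1 and Npc2, which release cholesterol from lysosomes, had log2 ratios of 0.21 and 0.30 by their brightest probe sets, and the esterase Nceh1 had 0.41. Other probe sets reached 0.84 for Npc2 and 0.85 for Nceh1.

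**Figure D4:**
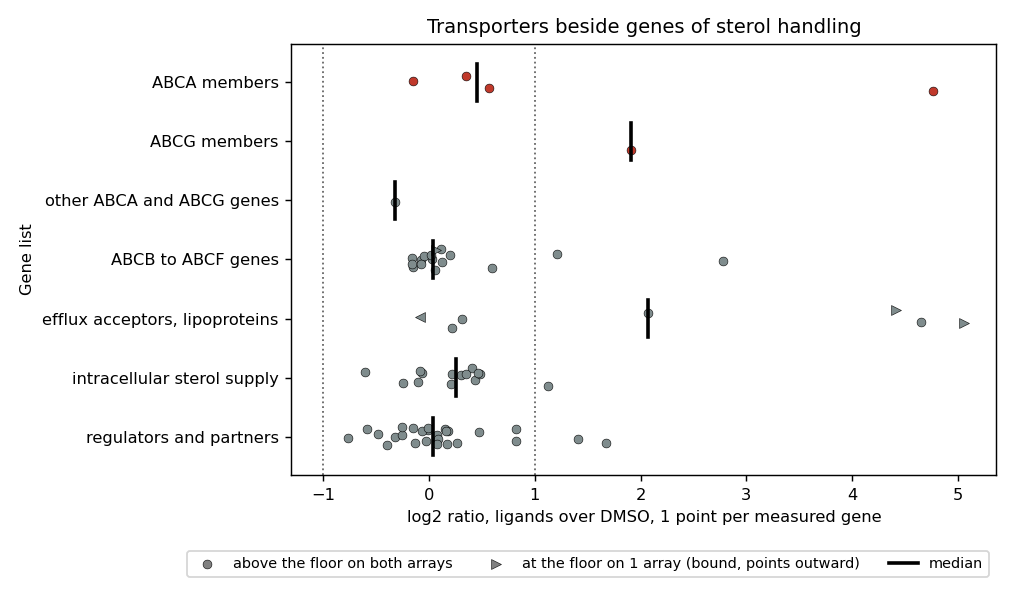
Log2 ratio of ligands over DMSO, 1 point per measured gene (brightest probe set), for the family and for related gene lists, with a bar at each median and dotted lines at 2-fold. Triangles are genes at the floor on 1 array, whose ratio is a bound. Abca1 at 4.76 lies among the apolipoproteins Apoc1, Apoc2 and Apoe, and the other measured ABCA genes lie within 2-fold.

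Regulators and protein partners of ABCA1 and ABCG1 were mostly alike on both arrays. Of 31 on the array 26 were measured, 2 were at least 2-fold higher and none lower, and the median log2 ratio was 0.03. The 2 were Srebf1, the lipogenic transcription factor and LXR target (61505 with the ligands and 19262 with DMSO), and Mylip, the ubiquitin ligase for the LDL receptor (10342 and 3898). Nr1h3, which encodes LXRα itself, was 1.77-fold higher (5577 and 3150), and the labels do not say which of the introduced and endogenous transcripts its probe set detects. Among its heterodimer partners, Rxrb had a log2 ratio of 0.08. Rxra had -0.03 at signals just above the floor (421 with the ligands and 430 with DMSO), and 0.23 in its other probe set. Rxrg lay below the floor on both arrays. Usf1, an E-box-binding factor, was 1.77-fold higher (1972 and 1113), while the other probe set gave a log2 ratio of 1.18. Capn2, a subunit of the calpain proteases that can degrade ABCA1, was 1.70-fold lower (10741 and 18243) by its single probe set. The part of these differences in those of Abca1 and Abcg1 was not tested.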

How the data were processed

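Total RNA was the starting material, the label was biotin, and 2 arrays were hybridised. The deposited values are intensities on a linear scale, 1 MAS5 signal per probe set, per the submitters' processing notes, and no version is stated there. MAS5 scales each array to a common mean, so ratios are relative to the bulk of each array. The signals were used without further normalization. Gene names came from the platform annotation, updated by gene identifier to GRCm38.p6. Of 45101 probe sets 34945 had 1 symbol, 932 several and 9160 none, and 64 were controls. No member probe set has a name ending in _s_at, _x_at or _a_at. Signals below the floor, the 50th percentile of gene probe sets, were set to it before log2 ratios were taken. The members, gene lists, rules and alternatives were chosen with earlier results of these data known. All members were named, with genes of the fixed lists at least 1.5-fold apart and, as nearest in ratio, the 2 genes above and 2 below Abcg1 and the 2 below Abca1, which had none above it. Others were chosen after their values were seen. The list of subfamilies B to F was formed by symbol after the data were seen. List genes without a probe set of 1 symbol were not analysed here. The number of arrays limits the precision, as do the disagreement of probe sets of 1 gene and signals near background. Python 3.11.15, numpy 2.4.6 and pandas 2.3.3 were used, and the counting procedure was tested on simulated data. Their noise was smaller than the disagreement of probe sets here, and the changed genes had signals well above the floor. That test therefore does not gauge errors near the floor or near the 2-fold threshold.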

Additional observations from a re-analysis of the deposited data

How the results depend on the processing

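The floor was moved to the 25th and to the 75th percentile or replaced by a pseudocount of 32. Arrays were also quantile-normalized, centred on the median ratio of measured probe sets or rescaled to the Actb and Gapdh controls. Probe sets of 1 gene were averaged, those named _s_at, _x_at or _a_at were dropped, or a signal over the floor was required in both groups. Thresholds of 1.5-fold and 3-fold were tried too. A floor at the median of all probe sets was chosen after seeing the data. Abca1 and Abcg1 were at least 2-fold higher under each of these. Several of the changes could not alter their ratios. No member probe set has a dropped name. All measured member probe sets already exceeded the floor in both groups, so requiring this or lowering the floor left the ratios as they were. A changed threshold alters only the counts. Log2 ratios ranged from 4.70 to 5.12 for Abca1 and from 1.84 to 2.44 for Abcg1, highest with averaged probe sets. The number of members above the floor was 9 with the 25th percentile and 3 with the 75th, where their median log2 ratio was 1.91 because fewer genes remained. With no floor, 1 gene and 1 probe set (Abcg5, at -1.65) became at least 2-fold lower, and Abca5 at 1.72 became the third gene at least 2-fold higher, all at signals near background. With the 75th percentile as the floor, 3038.8, DMSO signals of all 3 Abca1 probe sets lay below it, and the bounds of the 2 less bright ones were 3.78 and 2.55 on the log2 scale, while the second probe set of Abcg1 was bounded at 0.70. Rescaling moved the median of all measured genes to -0.09. No paired analysis was possible because each group had 1 array. Signals near background and the lack of replicates limit every value for Abca5, Abcg2, Abcg3, Abcg5 and Abcg8.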
